A study of Mus musculus with 51 samples.

Results

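Nefl, Nefm, Nefh, Tubb3, Stmn2 and Map1a encode the neurofilament triplet and 3 neuronal microtubule proteins, and their signal was followed over captured regions of the mouse cochlea after noise or a mock exposure. The 6 genes were taken by symbol from the 6248 genes in the deposited files, and all 6 passed the filter on low values that left 4686 genes for testing. In GeoMx, barcoded probes are photocleaved from a chosen area of a tissue section and counted by sequencing. Fresh-frozen sections of 6 µm came from male CBA/CaJ mice of 16 weeks, with 5 animals per treatment. The noise was broadband, at 100 dB SPL for 2 h, and control animals went through a mock exposure; no further allele or agent is named in the labels. The titles add 4 h to the exposure in both treatments, while the series text places collection right after the noise. By title the regions were 16 neuron and 14 supporting-cell regions after mock, and 13 neuron and 8 supporting-cell regions after noise. Noise neuron replicate 6 held the same value for every gene and was left out, so 12 noise neuron regions and 50 regions in all were used. The labels do not tie regions to animals and each group has more regions than animals, so some regions share an animal and all p-values over regions are too small.

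Neurofilaments are the intermediate filaments of large myelinated axons. They are built from a light (Nefl), a medium (Nefm) and a heavy (Nefh) chain, and the amount of filament sets the caliber of an axon. Axonal microtubules are built from tubulins, among them the neuron-enriched beta-tubulin Tubb3. They are bundled and stabilised by proteins such as Map1a, and stathmins such as Stmn2 bind free tubulin and make microtubules more dynamic. In the cochlea these proteins fill the cell bodies and axons of the spiral ganglion neurons, which carry signals from hair cells to the brain, and antibodies to neurofilament and to Tubb3 are common stains for these neurons.

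Nefl (gene ID 18039) lies at chr14:68083863-68089095 and Nefm (18040) at chr14:68119545-68125004, which leaves 30449 bp between them. Nefh (380684) lies at chr11:4938754-4948064, Tubb3 (22152) at chr8:123411553-123422015, Stmn2 (20257) at chr3:8509527-8561604 and Map1a (17754) at chr2:121289590-121310832. These are protein-coding genes with positions from RefSeq on GRCm38.p6, the build that the submitters' processing notes name as GRCm38. The positions of the probes within the transcripts are not given in the sources used here. RefSeq promoter sequences were at hand for 2 of the 6 genes, Tubb3 and Map1a. Their upstream stretches are shown because both genes were higher in neuron regions and Map1a was lower there after noise. Both are plus-strand stretches read 5′ to 3′, chr8:123411403-123411552 for Tubb3 and chr2:121289452-121289589 for Map1a. Capitals mark matches, searched on both strands, to 4 kinds of motif. The GC box was searched as GGGCGG. The CCAAT box was searched by the letters of its name. The TATA box was searched as TATAAG and, separately from that form, as TATAAA. The last motif, CAGCACC, is a run of 7 letters within the RE1 element bound by REST, a repressor of neuronal genes.
Tubb3: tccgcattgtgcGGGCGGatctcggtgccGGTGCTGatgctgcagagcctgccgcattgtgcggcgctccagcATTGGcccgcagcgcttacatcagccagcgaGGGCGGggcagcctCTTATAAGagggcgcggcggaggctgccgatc
Map1a: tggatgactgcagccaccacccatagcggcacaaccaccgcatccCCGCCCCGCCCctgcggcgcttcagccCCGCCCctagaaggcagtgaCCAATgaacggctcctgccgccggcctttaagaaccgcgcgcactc
The stretch of Tubb3 held 2 GC boxes, 1 CCAAT box, the 7-letter RE1 match and TATAAG on both strands in overlapping positions. The stretch of Map1a held 3 GC boxes, of which 2 overlap by a letter, and 1 CCAAT box. In windows of 300 bases around the start of 32851 RefSeq promoters, the GC box was found in 35.7%, the CCAAT box in 37.4%, the TATAAG form of the TATA box in 7.43% and the RE1 letters in 7.14%. Those windows are longer than the stretches shown, of 150 bases for Tubb3 and 138 for Map1a, so the shares do not apply to the stretches as they stand. The matches describe the letters only.

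Values are the authors' signal, scaled so that the upper quartile of every region is the same (3.12). Within a region nearly all values are whole multiples of the lowest, so reads could be recovered by division, with a floor of 1 read and none at 0. Recovered reads ranged from 9607 to 88156 per region, and neuron regions were deeper (medians of 23494 after mock and 26710 after noise) than supporting-cell regions (12885 and 16882). Nefl, Nefm, Nefh and Map1a rested on medians of 20.5 to 66 reads in neuron regions but only 5.5 to 16 in supporting-cell regions. Map1a was lowest there, with medians of 5.5 reads after mock and 6.5 after noise. It was at the floor of 1 read in 1 supporting-cell region of each treatment. Tubb3 and Stmn2 rested on medians of 6 to 8.5 reads in neuron regions and 2 to 3 in supporting-cell regions, where 7 of 22 regions for Tubb3 and 4 of 22 for Stmn2 were at the floor of 1 read. Their low levels are therefore known only coarsely. The region labels were checked against markers. Of 11 tested neuron markers 9 were higher in mock neuron regions than in mock supporting-cell regions, where 13.8% of all genes were called higher. In the same comparison 10 of 12 markers of Schwann and satellite glia were lower, where 6.19% of all genes were called lower. Pmp22, a protein of peripheral myelin, had a signal of 15.6 ± 4.82 (SD, n = 14) in mock supporting-cell regions and 4.79 ± 2.41 (n = 16) in mock neuron regions. Of 11 markers of organ of Corti supporting cells 3 were in the files. Sox2 and Prox1 had medians of 1 and 2 reads in supporting-cell regions of both treatments. Sparcl1 had a signal of 31.0 ± 12.0 in mock supporting-cell regions and was higher in mock neuron regions, at 93.9 ± 12.5, so none of these markers was called higher in the regions labelled "supporting cells". The captured areas are named by treatment and no slide or scan is given across treatments, so batch and treatment cannot be told apart.

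**Figure D1:**
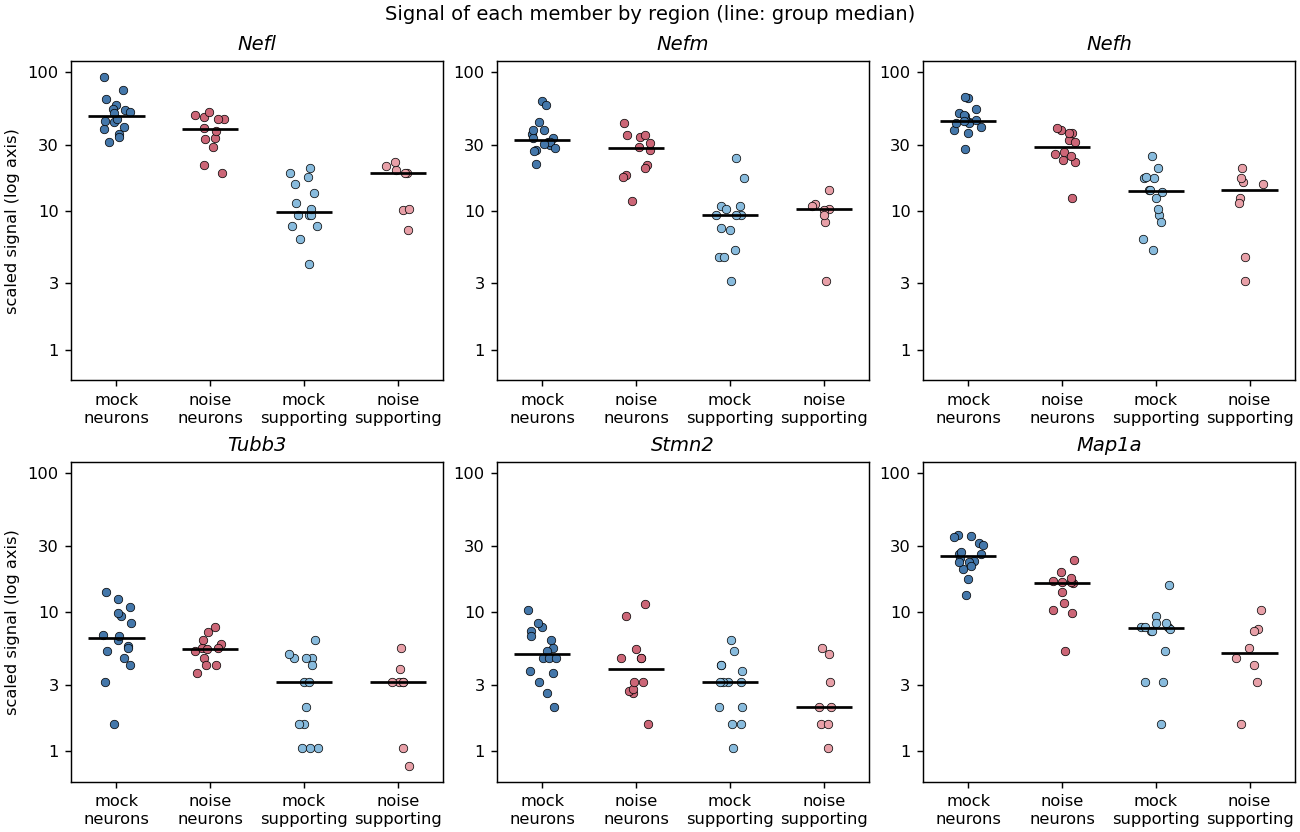
Scaled signal of each gene in each region (log axis, 50 regions), grouped by region type and treatment, with a line at the group median. For Nefl and Nefh all 16 mock neuron regions lie above all 14 mock supporting-cell regions, and for Map1a and Nefh all 12 noise neuron regions lie below the mock neuron median. Overlap was counted for these genes only, not over all genes. Levels are not comparable between genes, since probes differ.

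After mock exposure all 6 genes were higher in neuron than in supporting-cell regions, with the neurofilament chains and Map1a 3.40 to 4.40 times as high in mean signal and Tubb3 and Stmn2 about 2.28 and 1.71 times as high. All 6 passed an adjusted p of 0.05 in limma, where 13.8% of the genes tested were called higher in neurons and 20% were called in either direction. The median log2 difference was 1.79 over the 6 genes and -0.05 over all genes. All log2 differences are of log2(value + 1), so those of low genes come out too small.

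Nefl, the core chain on which the other neurofilament chains assemble, had a lowest, median and highest signal of 31.2, 48.6 and 92.8 in mock neuron regions and 4.16, 9.88 and 20.3 in mock supporting-cell regions. The groups did not overlap, and mock neuron replicate 1 was the highest region. The limma log2 difference was 2.10 (SE 0.16, adjusted p 1.47e-37), the fourth smallest p of all genes tested. Nefm, the medium chain, ranged over 21.8, 32.4 and 62.4 in neuron regions and 3.12, 9.36 and 23.9 in supporting-cell regions. For Nefm 15 of 16 neuron regions lay above the highest supporting-cell region, and the log2 difference was 1.90 (SE 0.17, adjusted p 1.46e-25). Nefh, the heavy chain whose long phosphorylated tail spaces the filaments, ranged over 28.1, 44.7 and 66.0 against 5.20, 13.9 and 24.9. The Nefh groups did not overlap either, with a log2 difference of 1.77 (SE 0.16, adjusted p 1.90e-25). Here and below, overlap of groups was counted for the genes under study only. How common such separation is over all genes was not counted.

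Map1a, which binds along mature microtubules, had values of 13.3, 25.2 and 35.9 in mock neuron regions and 1.56, 7.64 and 15.6 in mock supporting-cell regions. Its groups overlapped in 1 neuron region, and the log2 difference was 1.80 (SE 0.19, adjusted p 2.95e-19). Tubb3 ranged over 1.56, 6.50 and 14.0 in neuron regions and 1.04, 3.12 and 6.24 in supporting-cell regions. Only 8 of 16 Tubb3 values lay above the highest supporting-cell region, and the log2 difference was 0.98 (SE 0.20, adjusted p 1.87e-05). Stmn2, a stathmin of growing and regenerating axons, ranged over 2.08, 4.94 and 10.4 against 1.04, 3.12 and 6.24. Its groups overlapped most, with 5 of 16 neuron regions above all supporting-cell regions and a log2 difference of 0.62 (SE 0.20, adjusted p 0.0131). The Stmn2 call was lost with DESeq2 (adjusted p 0.201), with the mean of the olfactory receptor genes as a measure of background in the model (0.154) and with depth in the model (0.0554). The calls of Stmn2 and Tubb3 were lost among the deeper regions too (0.768 and 0.730), of which only 1 was a mock supporting-cell region.

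After noise the same direction held, and 5 of 6 genes were called higher in neuron regions, where 6.94% of all genes were called higher and 8.28% in either direction. The log2 differences were 1.39 (SE 0.22) for Nefm, 1.33 (SE 0.24) for Map1a, 1.28 (SE 0.20) for Nefh and 1.21 (SE 0.20) for Nefl, with adjusted p between 3.77e-08 and 2.59e-06 in limma. For Nefl, noise neuron regions had a lowest, median and highest signal of 18.7, 38.6 and 52.0, and noise supporting-cell regions 7.28, 18.7 and 22.6. Unlike after mock, the Nefl groups overlapped, with 10 of 12 neuron regions above the highest supporting-cell region. Tubb3 differed by 0.79 (SE 0.25, adjusted p 0.0266), and this call was lost in 7 of 17 alternative settings (adjusted p from 0.0148 to 0.157 over them). The Tubb3 call was lost without noise supporting-cell replicate 1 (0.139) or 5 (0.112) and without noise neuron replicate 7 (0.0558) as well. Stmn2 differed by 0.58 (SE 0.25, 95% interval 0.09 to 1.06) and did not pass (adjusted p 0.154).

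**Figure D2:**
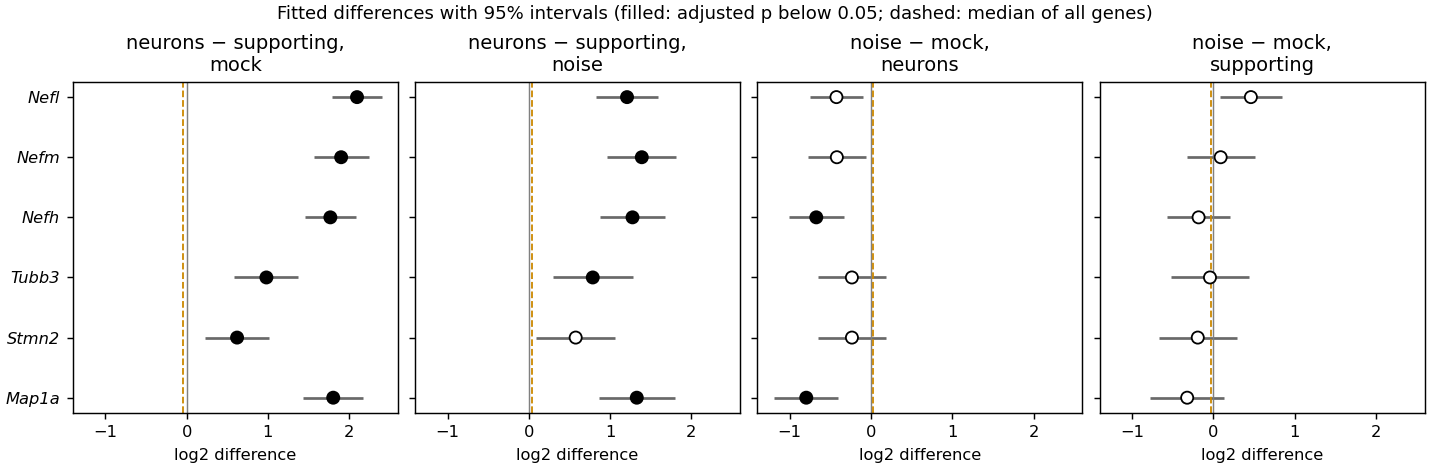
Fitted log2 differences with 95% intervals for each gene in 4 comparisons, with filled points where the adjusted p was below 0.05 and a dashed line at the median of all genes. All 6 genes were called in mock regions and 5 in noise regions between the region types; Nefh and Map1a were called between treatments in neurons, and none in supporting-cell regions.

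Neuron and supporting-cell regions captured from the same area could be compared directly in 14 mock and 7 noise areas. After mock, Nefl was higher in the neuron region by 2.15 ± 0.517 (SD, n = 14 areas) on the log2 scale, and it was higher in 14 of 14 areas (exact sign-flip permutation test, two-sided, p 0.000122, the smallest that 14 areas allow). Nefm, Nefh and Map1a were also higher in 14 of 14 areas, by 1.90 ± 0.511, 1.77 ± 0.510 and 1.79 ± 0.530, at the same p. Tubb3 was higher in 12 of 14 areas (0.95 ± 0.829, exact p 0.00122) and Stmn2 in 8 of 14 (0.59 ± 0.875, exact p 0.0254). After noise the gap was 1.30 ± 0.391 (n = 7 areas) for Nefl, 1.55 ± 0.497 for Nefm and 1.38 ± 0.402 for Nefh, each in 7 of 7 areas (exact p 0.0156, the smallest that 7 areas allow). Map1a was higher in 6 of 7 areas (1.38 ± 1.02, exact p 0.0313), as were Tubb3 (0.84 ± 0.774, exact p 0.0313) and Stmn2 (0.82 ± 1.04, exact p 0.0469). These p-values are for each gene alone, with 6 genes tested per treatment.

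**Figure D3:**
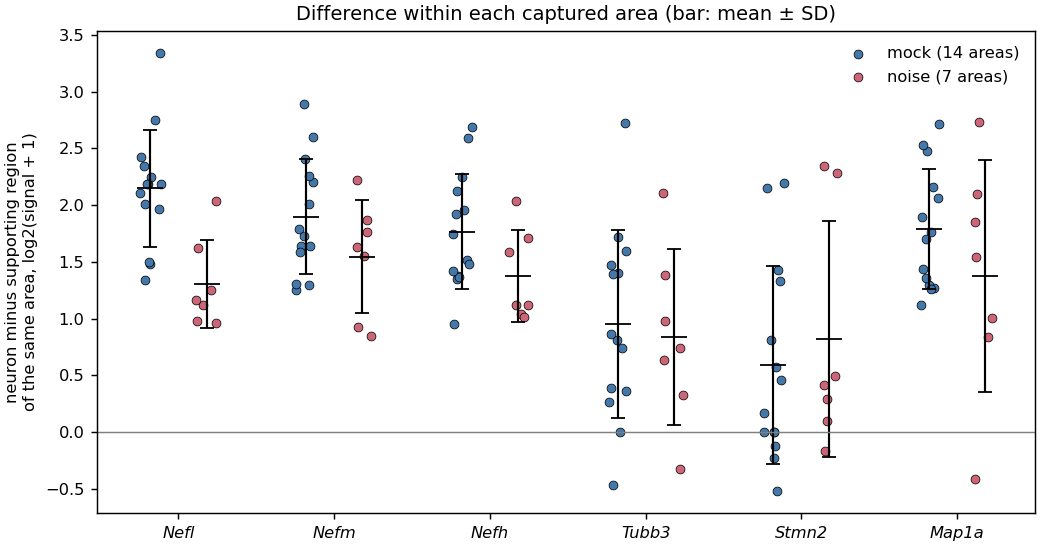
Neuron minus supporting-cell region of the same captured area, on the log2(signal + 1) scale, for 14 mock and 7 noise areas, with a bar for the mean ± SD. The noise areas of Nefl have a mean of 1.30 against 2.15 in mock areas, while the noise and mock values of Stmn2 overlap over most of their range and both reach below 0.

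The gap between region types was set against treatment. For Nefl it was 0.84 smaller on the log2 scale in noise areas than in mock areas (exact permutation test over 21 areas, two-sided, p 0.000946). With each area left out in turn this difference stayed between -0.97 and -0.75, with exact p of 0.00263 or less. In the limma fit over all regions the difference of the Nefl gap was -0.89 (SE 0.25, unadjusted p 0.000418), the third smallest p of 4686 genes, but its adjusted p was 0.510. No gene passed in that comparison with limma (0% called, 287 genes or 6.12% at an unadjusted p under 0.05), edgeR or DESeq2. For Nefm, Nefh and Map1a the within-area gap was also smaller after noise, by 0.35 (exact p 0.145), 0.39 (exact p 0.0871) and 0.41 (exact p 0.252) on the log2 scale, none of which passed. For Tubb3 and Stmn2 the change of the gap was -0.11 and 0.23 (exact p 0.771 and 0.582).

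Between treatments in neuron regions, Map1a and Nefh were lower after noise, and they were the only 2 of the 6 genes called in limma. Their mean signal after noise was 0.574 and 0.630 times that after mock. Few genes were called at all in this comparison, 0.662% in either direction and 0.448% lower, while 13.5% had an unadjusted p under 0.05. The 31 genes called became 11 without noise neuron replicate 1, 12 without replicate 2, 18 without replicate 10, and 19 without replicate 9 or without mock neuron replicate 10. The median log2 difference was -0.42 over the 6 genes and 0.02 over all genes.

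Map1a had values of 13.3, 25.2 and 35.9 (lowest, median, highest) in mock neuron regions and 5.20, 16.2 and 23.7 in noise neuron regions. All 12 noise regions lay below the mock median and 4 of them below the lowest mock region, noise neuron replicate 10 being the lowest. The limma log2 difference was -0.80 (SE 0.20, adjusted p 0.0227), and a two-sided permutation test of this gene alone gave p 8e-05. Nefh had values of 28.1, 44.7 and 66.0 after mock and 12.5, 29.0 and 39.8 after noise. All 12 noise regions lay below the mock median and 6 below the lowest mock region, with a log2 difference of -0.67 (SE 0.17, adjusted p 0.0227). Nefl stood at 50.8 ± 16.0 (SD, n = 16) after mock and 37.7 ± 10.9 (n = 12) after noise, a difference of -0.43 (SE 0.17, adjusted p 0.219), with 10 of 12 noise regions below the mock median. Nefm stood at 35.7 ± 10.9 and 26.9 ± 9.14, a difference of -0.42 (SE 0.18, adjusted p 0.282). Neither Nefl nor Nefm passed. For Tubb3 (7.16 ± 3.42 and 5.43 ± 1.22) and Stmn2 (5.41 ± 2.26 and 4.67 ± 2.93) the difference was -0.24 in both, with intervals from -0.65 to 0.18.

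The calls of Map1a and Nefh were not firm. Both were lost without noise neuron replicate 1 (adjusted p 0.0592 and 0.0574), replicate 2 (0.0531 for both) or replicate 10 (0.0854 for both), when each gene's own variance was used (0.0724 and 0.128), and with the olfactory receptor mean in the model (0.405 and 0.468). In that model the log2 differences were -0.68 for Map1a and -0.55 for Nefh, and the median of the 6 genes was -0.33. By contrast, edgeR and DESeq2 on the recovered reads called Nefl and Nefm lower too. The olfactory receptor mean was 1.60 ± 0.105 in noise and 1.41 ± 0.112 in mock neuron regions (log2 scale), and its part in the result was not tested beyond that model.

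Neuron markers moved in the same direction. The mean log2 value of 11 neuron markers, which excludes the 6 genes, was 3.49 ± 0.218 in mock neuron regions (range 3.02 to 3.88) and 3.13 ± 0.306 in noise neuron regions (range 2.44 to 3.47). The summed signal of the markers in the files ran from 104 to 222 after mock and from 63.4 to 150 after noise, and 10 of the 11 tested markers had a negative fitted difference after noise. None of them was called in limma (4 at an unadjusted p under 0.05, as were 13.5% of all genes). By contrast, edgeR and DESeq2 each called 4 lower, where they called 183 and 133 of 4646 genes in either direction. In captured regions, fewer neurons and less RNA per neuron cannot be told apart. With the marker mean in the model, a setting added after the data were seen, the log2 difference was -0.60 for Map1a (adjusted p 0.290), -0.31 for Nefh (0.566) and -0.05 for Nefl (0.948). Relative to the marker mean of the same region, Nefl stood at 2.15 ± 0.320 after mock and 2.08 ± 0.315 after noise, whereas Nefh stood at 2.05 ± 0.208 and 1.72 ± 0.257 and Map1a at 1.21 ± 0.356 and 0.77 ± 0.304.

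In supporting-cell regions none of the 6 genes was called between treatments, and 0.384% of all genes were (18 genes, with 10.1% at an unadjusted p under 0.05). The 18 became 3 without noise supporting-cell replicate 7, 6 without replicate 5, 8 without replicate 8 and 11 without replicate 1 or 4. They became 8 without mock supporting-cell replicate 12, 10 without replicate 6 and 11 without replicate 8 or 9. Nefl was higher in the mean after noise, 16.1 ± 5.87 (n = 8) against 11.5 ± 4.90 (n = 14), with 7 of 8 noise regions above the mock median and 2 above the highest mock region. Its log2 difference of 0.46 (SE 0.19, 95% interval 0.08 to 0.84) had an adjusted p of 0.351 and did not pass. Nefl was the only 1 of the 6 with an unadjusted p under 0.05, and edgeR and DESeq2 called none of the 6 either. The others differed by -0.32 (Map1a) to 0.09 (Nefm), with adjusted p of 0.708 or more. Glia markers moved in the same regions: the summed signal of 12 of them ran from 117 to 214 after mock and from 54.1 to 98.2 after noise. Of these 12, 4 were called lower, Pmp22, Mbp and Apoe among them, where 0.32% of all genes were called lower. The part of glial content in the Nefl value was not tested.

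Each gene thus had its highest mean in mock neuron regions, its next highest in noise neuron regions and its lowest 2 in supporting-cell regions. The step from mock to noise neuron regions passed for Map1a and Nefh alone, and the step between the supporting-cell groups for none. The step from noise neuron to noise supporting-cell regions passed for all but Stmn2.

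Each gene was also taken relative to Nefl of the same region, as a difference of log2(value + 1). The scaling of a region cancels only in part, since the added 1 weighs more in low genes such as Tubb3 and Stmn2. A log2 ratio is not a level, since probes differ, and only its change between groups was read. In neuron regions Map1a was lower relative to Nefl after noise, at -1.31 ± 0.249 (n = 12) against -0.94 ± 0.334 (n = 16), a difference of -0.37 (SE 0.11, permutation p 0.00360). Nefh was lower as well, at -0.35 ± 0.208 against -0.10 ± 0.279, a difference of -0.25 (SE 0.09, permutation p 0.0134). Nefm kept its ratio to Nefl within the spread, with a difference of 0.01 (SE 0.12, permutation p 0.960). The change of Tubb3 and of Stmn2 was 0.19 in both (permutation p 0.395 and 0.411).

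In supporting-cell regions Nefh had a lower ratio to Nefl after noise, by 0.64 on the log2 scale (SE 0.23, exact permutation p 0.0205). Map1a had a lower ratio there too, by 0.78 (SE 0.37, exact permutation p 0.0319). In limma the log2 difference there was 0.46 for Nefl, -0.18 for Nefh and -0.32 for Map1a, and none of them passed. Both ratios thus share a higher mean of Nefl, whereas in neuron regions Nefl, Nefh and Map1a all had lower means after noise. Between region types after mock, Tubb3 and Stmn2 were lower relative to Nefl in neurons, with differences of -1.11 (SE 0.29, permutation p 0.000580) and -1.47 (SE 0.30, permutation p 8e-05). After noise the Stmn2 difference was -0.64 (SE 0.26, exact permutation p 0.0240). The ratios of Tubb3 and Stmn2 in supporting-cell regions rest on the few reads given above. The Map1a ratio in noise supporting-cell regions rests on few reads too. It was lowest in replicate 2 (-2.95, on 1 read of Map1a) and replicate 8 (-2.52, on 4). It was highest in replicate 7 (0, on 7). In all 20 ratio tests were run, and these 7 had an unadjusted p under 0.05.

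**Figure D4:**
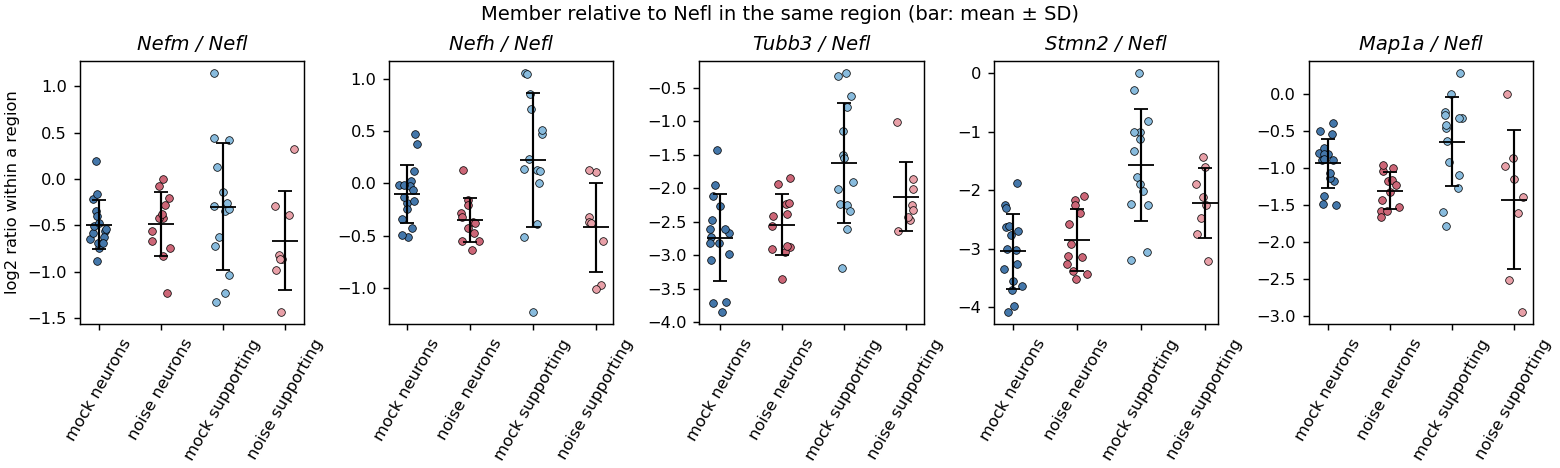
Log2 ratio of each gene to Nefl within a region (each as signal + 1), by group, with a bar for the mean ± SD. In neurons the noise regions sit lower than the mock regions for Nefh (-0.35 against -0.10) and Map1a (-1.31 against -0.94), while Nefm shows no such step; supporting-cell regions scatter more widely.

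Within groups the neurofilament chains varied together. After centring on group means, Pearson's r over the 50 regions was 0.67 between Nefl and Nefh, 0.67 between Nefm and Nefh and 0.58 between Nefl and Nefm. Map1a went with Nefl at 0.49, with 0.88 in noise neuron, 0.64 in mock neuron and 0.55 in mock supporting-cell regions. In noise supporting-cell regions r was -0.13. Tubb3 and Stmn2 went with the other genes at -0.02 to 0.36, which in values of few reads is no finding. The genes whose pattern was most like the mean of the 6 were Gnas (0.78), which encodes the stimulatory G protein alpha subunit, Calb2 (0.75), the calcium-binding calretinin of spiral ganglion neurons, Ank2 (0.72), an ankyrin that ties membrane proteins to the spectrin skeleton, Fth1 (0.71), the ferritin heavy chain, and Ubb (0.70), a ubiquitin gene. They led 4641 genes ranked, and the same 5 led by Spearman's rho. All points share a region's library, scaling and neuron content, and the mean of the 6 had r of 0.25 with log2 total reads.

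The rest of the axonal cytoskeleton was read from lists of 162 further genes, of which 91 were in the files and 75 were tested. After mock 38 of 75 were called higher in neuron regions and 3 lower, where 13.8% of all genes were called higher and 6.19% lower. The median log2 difference was 0.52 over these genes and -0.05 over all genes. After noise 24 were called higher, where 6.94% of all genes were, and 0 lower. The median was then 0.44, against 0.05 over all genes. The counts by group of genes below have the same background. Of the 6 tested tubulins 4 were higher in mock neuron regions, led by Tuba4a (1.19, SE 0.20) and Tuba1b (0.89, SE 0.14), alpha-tubulins that pair with beta-tubulins such as Tubb3. Of 23 microtubule-associated genes 8 were higher, among them the stathmin Stmn3 (1.95, SE 0.18), Map1b (1.89, SE 0.17), the early relative of Map1a, and the dendritic Map2 (1.59, SE 0.20).

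Of 26 motors of axonal transport and their adaptors and regulators, 18 were called higher in mock neuron regions and 13 in noise neuron regions. The largest differences after mock were those of the kinesin-1 heavy chains Kif5c (1.81, SE 0.20) and Kif5a (1.48, SE 0.20), the kinesin light chain Klc1 (1.64, SE 0.19) and the vesicle motor Kif1a (1.47, SE 0.20). Of 13 spectrins, ankyrins and cross-linkers 6 were higher, led by Ank2 (1.99, SE 0.17), Ank1 (1.59, SE 0.19) and Dst (1.18, SE 0.20), which links filament systems. Of 4 tubulin-modifying and severing enzymes, Ttll7 (0.95, SE 0.20), which adds glutamates to tubulin, and the katanin-like Katnal1 (0.52, SE 0.19) were higher. The 3 called lower were Vim (-0.59, SE 0.17), the intermediate filament of glia and other non-neuronal cells, the dynein light chain Dynll1 (-0.55, SE 0.19) and the adducin Add3 (-0.49, SE 0.19). None of the list was called lower with the negative probe subtracted, with reads minus 1 or with the olfactory receptor mean in the model. In mock neuron and mock supporting-cell regions Vim rested on medians of 1.5 and 2 reads, Dynll1 on 3 and 2.5, and Add3 on 2.5 and 2.5. There 1 read was worth a median signal of 0.78 and 1.30, so values at the floor are lower in neuron regions.

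Between treatments in neuron regions 2 of these 75 genes were called, both lower after noise, where 0.448% of all genes were called lower. Of the 75, 62 had a difference below 0, and 19 had an unadjusted p under 0.05 in limma, where 13.5% of all genes did. The median was -0.23, against 0.02 over all genes. The called genes were Clip3 (-0.88, SE 0.21, adjusted p 0.0180), a protein with microtubule-binding CAP-Gly domains, and the kinesin light chain Klc2 (-0.75, SE 0.20, adjusted p 0.0376). Clip3 had a signal of 11.0 ± 3.23 (n = 16) after mock and 5.88 ± 2.87 (n = 12) after noise. Neither was called with reads minus 1, with the negative probe subtracted, with each gene's own variance or with the neuron marker mean in the model. In the last of these 53 of 75 differences were below 0, the median was -0.12 and 5 genes had an unadjusted p under 0.05. Clip3 was not called in 5 of 18 alternative settings, the deeper regions being the other, nor without noise neuron replicate 10 (adjusted p 0.0854). Klc2 was not called in 8 of 18, the others being total reads, the replicate block, the olfactory receptor mean and DESeq2. The Klc2 call was also lost in 13 of 50 fits that left out 1 region, with adjusted p of up to 0.153, namely noise neuron replicates 1, 2, 5, 9, 10 and 12 and mock neuron replicates 1, 2, 5, 9, 10, 11 and 16. With edgeR and DESeq2 15 and 13 of the 75 were called lower, where 183 and 133 of 4646 genes were called in either direction. In supporting-cell regions 0 of 75 were called by limma, edgeR or DESeq2, and 0.384% of all genes were called in limma. There 8 of 75 had an unadjusted p under 0.05 in limma, as did 10.1% of all genes. The median was -0.12 against -0.03 over all genes.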

How the data were processed

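The authors deposited 1 file of signal per region and a table of the same values, scaled by the authors to a common upper quartile. DRAGEN and mm10/GRCm38 are named in the submitters' processing notes; probe and gene filters are not given in the sources used here. Dividing the deposited signal of a region by its lowest value gave whole reads (99.97% of values within 0.01 over 50 regions), and how counts of 0 had been treated is not given in the sources used here. The 66 missing entries touched none of the 6 genes.

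log2(value + 1) was fitted with limma 3.58.1 in R 4.3.3: 4 group means, captured area (named in the header of the deposited table) as a random block (correlation 0.0389), eBayes with a trend, genes whose mean reached the 0.25 quantile (1.85), and Benjamini-Hochberg adjustment within each comparison at 0.05. Its SEs are set by the variance trend over the mean alone, so they understate the error of genes more variable than that trend. edgeR 4.0.16 and DESeq2 1.42.0 ran on recovered reads of 4646 genes as alternatives. Permutation tests used scipy 1.17.1 with 100000 resamples, or were exact where a group had fewer than 10 values, and were two-sided. Correlations between same-numbered regions were over 0.1 in 0 pairs. Regions of the same area passed that cut in only 0 of 14 mock and 1 of 7 noise pairs. The check therefore cannot tell whether the numbers pair regions. The limma step was also run on simulated reads that held no animal or area effect. That run cannot speak to regions that share an animal.

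Named genes are the 6, the 5 most like their mean, marker genes, and from each list called genes, at most 4 per direction. The 6 genes and the lists were chosen with earlier results of these data known. A marker gene counted in the lists is not reported here by name.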

Additional observations from a re-analysis of the deposited data

Results flagged for a closer look

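The gap of Nefl between neuron and supporting-cell regions of the same area was smaller after noise than after mock, with a difference of -0.84 on the log2 scale, and stood out because the effect of region type differed between treatments. Nefl had the lower mean in noise neuron regions and the higher mean in noise supporting-cell regions, and neither of these steps passed on its own after adjustment. Over all genes the limma test of this difference did not pass (adjusted p 0.510).

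Noise supporting-cell replicate 7 stood apart from the other 7 regions of its group in the ratio of Tubb3 to Nefl, at -1.01 on the log2 scale against -2.65 to -1.87 in the others. It had the lowest Nefl signal of its group, 7.28, on 7 reads. Of 17 groups of values looked at this was the only one with such a region. Chance gives about 1 group in 20, so 1 in 17 is near what chance gives.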

How the results depend on the processing

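Noise against mock in neuron regions was the comparison that moved. The number of the 6 genes called, 2 as reported, was 0 with reads minus 1, with the negative probe subtracted and with the olfactory receptor mean in the model. It was also 0 in 2 settings added after the data were seen, the neuron marker mean in the model and each gene's own variance. It was 1 without the trend and among the 24 regions with an upper quartile of 4 or more reads (Map1a called, Nefh not), and 4 with edgeR or DESeq2. Leaving out each region in turn gave 0 to 2. Over all genes it gave 11 to 35 there and 3 to 21 in supporting-cell regions. Over all genes that comparison called 31 as reported, 183 with edgeR, 133 with DESeq2, 11 with each gene's own variance, 7 with the negative probe subtracted, 4 with reads minus 1, 3 with the olfactory receptor mean and 2 with the neuron marker mean. Reads minus 1 moved its median of all genes to 0.12. The members called in the other 4 comparisons stayed within 1.5 times under every setting run. Their counts over all genes moved more. Between region types after mock, 939 genes were called as reported, 604 with depth in the model, 518 with DESeq2, 412 with the olfactory receptor mean and 147 among the deeper regions. After noise, 388 were called as reported, 255 with depth in the model, 230 with reads minus 1 and 218 with DESeq2. Between treatments in supporting-cell regions, 18 were called as reported, 11 with no filter on low values or with DESeq2, 10 with each gene's own variance, 8 with edgeR and 2 among the deeper regions. Scaled to total reads, the within-area gap of Stmn2 was 0.478 after mock (exact p 0.0596) and 0.724 after noise (exact p 0.0625), no longer past 0.05. With a pseudocount of 0.5 the Stmn2 ratio to Nefl between region types after noise was -0.58 (exact p 0.0535). With the replicate block 2 of the 6 genes were called in neuron regions between treatments (19 genes in all). The block changed no call of the 6 genes but ended that of Klc2. Tubb3 and Stmn2, at a few reads, set the limit of what depth allows.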
